A study of Mus musculus with 3 samples.

Results

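Matrix metalloproteinases and their inhibitors were followed in differentiating C2C12 myoblasts in which the long non-coding RNA Linc-RAM was overexpressed or knocked down. The 10 genes examined were the proteases Mmp2, Mmp3, Mmp9, Mmp13, Mmp14, Mmp19 and Adamts1 and the inhibitors Timp1, Timp2 and Timp3, which were picked by symbol from the 22068 genes in the files, and all 10 symbols were found. Of these, 8 genes, 5 proteases and all 3 inhibitors, had a mean of at least 1 RPKM (reads scaled to the length of the gene and to the size of the library) over the 3 libraries, and Mmp3 and Mmp13 did not.

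C2C12 is a mouse myoblast line that fuses into myotubes when serum is lowered. The 3 lines compared were stable C2C12 lines infected with a lentivirus, selected with blasticidin and harvested at 12 h in medium with 2% horse serum. One carried Linc-RAM (overexpression), one a short hairpin RNA against Linc-RAM (knockdown) and one an empty vector (control). The labels do not say which hairpin was used, nor whether a line was a clone or a pool of infected cells. Polyadenylated RNA was sequenced from 1 library per condition, so the spread between replicates is unknown for every difference given here, and the 2 comparisons with the control share its library.

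Matrix metalloproteinases are zinc-dependent enzymes that are made as inactive precursors and cut collagens, laminins and other proteins of the extracellular matrix. Tissue inhibitors of metalloproteinases (TIMPs) bind the active site of these enzymes. The balance of active proteases and inhibitors bears on how much matrix is turned over. In skeletal muscle this turnover accompanies the migration of myoblasts, their fusion and the remodelling of the basement membrane after injury.

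The RPKM values were made from whole reads and keep the total behind them. The totals recovered were 2105513 reads for overexpression, 1878146 for knockdown and 5130481 for the control, so the overexpression library had 41.0% and the knockdown library 36.6% of the control depth. Ratios are of RPKM as deposited, and the 95% interval beside a ratio is an exact Clopper-Pearson interval on the recovered reads that covers counting error only. Linc-RAM itself, listed as 2310015B20Rik, stood at 1.07 RPKM in overexpressing cells, 0 in knockdown cells and 0 in control cells, so it does not check the knockdown label. Markers of the muscle lineage were present in every library, except Mef2c, which was at 0 in knockdown cells and at most 0.289 RPKM elsewhere. The 8 genes summed to 568 RPKM in overexpressing cells, 229 in knockdown cells and 386 in control cells, most of it Des. The 9 macrophage markers summed to 4.37 to 5.91 RPKM, most of it Cd14. Cd14 was at 4.76 RPKM in overexpressing, 3.91 in knockdown and 3.12 in control cells, and Cd68 at 0.471, 1.58 and 0.967. Ptprc, Emr1, Itgam, Lyz2 and Tyrobp were at 0 in every library. All 5 neutrophil markers were at 0, and the 6 endothelial markers summed to at most 0.248 RPKM. The 10 fibroblast and tenocyte markers summed to 210 to 220 RPKM, mostly Col3a1, with Thy1, Lum, Tcf21 and Tnmd at 0 in every library. The 9 osteoblast and chondrocyte markers summed to 14.0 to 17.1 RPKM, with Ibsp, Alpl, Acan and Col2a1 at 0 in every library.

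In every library the transcripts were dominated by one inhibitor and one protease. Timp2, an inhibitor that also helps to activate pro-MMP2, stood at 214 RPKM in overexpressing cells, 203 in knockdown cells and 182 in control cells. Mmp14, the membrane-anchored collagenase MT1-MMP, stood at 75.5 RPKM in overexpressing cells, 115 in knockdown cells and 97.0 in control cells. Timp2 has 5 exons on the minus strand of chromosome 11, from 118162383 to 118217054 on mm9, and Mmp14 has 10 on the plus strand of chromosome 14, from 55050441 to 55060095. These 2 genes ranked first and second among the members in all 3 libraries, and over the genes with a mean of at least 1 RPKM Timp2 lay at or above percentile 99.2 and Mmp14 at or above percentile 97.5 in each library. Mmp19 and Adamts1 were in the middle to lower range, between 2.62 and 6.04 RPKM, and Mmp9 was the lowest of the 8. The order below Mmp14 differed between libraries. In overexpressing cells and in control cells Timp1 came next, before Mmp2 and Timp3, whereas in knockdown cells Mmp2 and Timp3 came before Timp1. Several neighbours in these orders were within counting error of each other, namely Mmp2 and Timp3 in overexpressing cells (ratio 1.18, 0.943 to 1.48) and in control cells (1.11, 0.951 to 1.30), Mmp19 and Adamts1 in overexpressing cells (1.22, 0.738 to 2.02), and, in knockdown cells, Timp3 and Timp1 (1.22, 0.893 to 1.69) and Adamts1 and Mmp9 (1.71, 0.769 to 4.19).

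**Figure D1:**
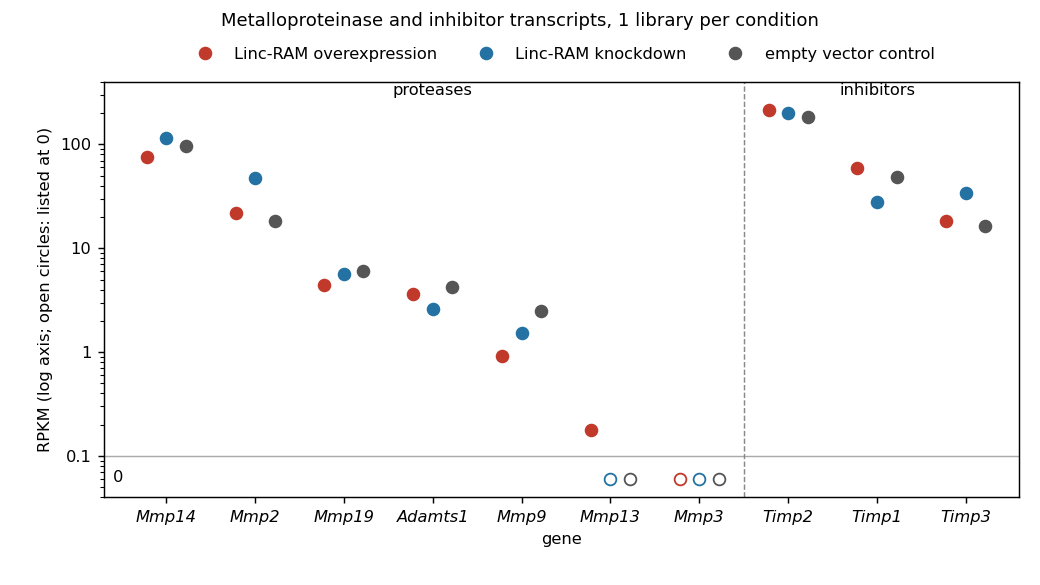
RPKM of the 10 genes on a log axis, with 1 point per library and genes listed at 0 drawn as open circles under the line. Timp2 and Mmp14 are the highest in each library, Mmp3 and Mmp13 lie at or near 0, and Mmp2 and Timp3 are highest in knockdown cells.

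Mmp3 (stromelysin 1) and Mmp13 (collagenase 3) were at or near 0. Mmp3 was listed at 0 RPKM in all 3 libraries, where a count of 0 allows up to 0.792 RPKM in overexpressing cells, 0.888 in knockdown cells and 0.325 in control cells at its annotated length of 1798 nt. Mmp13 was at 0.178 RPKM in overexpressing cells, which is 1 read, and at 0 in knockdown cells and in control cells. On mm9 both genes are transcribed from the plus strand of chromosome 9, Mmp3 at 7445822 to 7455972 and Mmp13 at 7272514 to 7283333, in a run of 10 Mmp genes that spans 427072 bases. Of the 10 genes of this run, 8 were listed at 0 in all 3 libraries, and the highest value was 0.227 RPKM, 1 read of Mmp10 in control cells. Every Mmp member with a mean of at least 1 RPKM lies on another chromosome (Mmp2 on 8, Mmp9 on 2, Mmp14 on 14 and Mmp19 on 10).

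Among the members with a promoter window, AP-1 sites and GC boxes before the start differed between those at or near 0 and those transcribed. Of the transcribed Mmp members, only Mmp14 had a window. RefSeq promoter windows were found for 7 of the 10 genes (not for Mmp2, Mmp9 and Mmp19), and the 250 bases before the start of each matched mm9 at 1 place. They were searched on both strands for the AP-1 site TGAGTCA, the TATA box TATAAA, the GC box GGGCGG and the E-box CAGCTG, a form favoured by MyoD. Mmp3 and Mmp13 each held an AP-1 site, 46 and 35 bases before the start, and a TATA box, 7 and 16 bases before it. Neither held a GC box. Mmp14, Timp1, Timp2, Timp3 and Adamts1 each held 1 to 3 GC boxes and no AP-1 site. Adamts1 also held a TATA box, 32 bases before the start, and only Timp2 among the 7 held CAGCTG, 188 bases before the start. Positions count from the RefSeq start, and the Timp2 window lies inside, and that of Timp3 partly inside, the longest span that GENCODE gives the gene, so neither is upstream of every annotated start. Over all 32851 windows of this length, 4.46% held the AP-1 site, 12.4% the TATA box, 32.7% the GC box and 13.0% CAGCTG. Among windows of genes with a mean of at least 1 RPKM, 60.3% held a GC box and 3.09% an AP-1 site, against 21.3% and 5.36% among windows of genes listed at 0 in all libraries. A TATA box was held by 6.01% of the former and 20.2% of the latter. A match describes the letters and does not show that a factor was bound. The windows of both genes at or near 0, of the most abundant protease and of the inhibitor that was lower in knockdown cells are given 5′ to 3′, with AP-1 sites, TATA boxes and GC boxes (on either strand) in capitals.
Mmp3 (mm9 chr9:7445572-7445821, forward strand): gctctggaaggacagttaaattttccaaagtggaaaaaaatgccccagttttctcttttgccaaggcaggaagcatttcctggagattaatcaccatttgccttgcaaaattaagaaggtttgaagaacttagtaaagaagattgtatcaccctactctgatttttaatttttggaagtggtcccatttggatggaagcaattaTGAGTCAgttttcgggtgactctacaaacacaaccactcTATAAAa
Mmp13 (mm9 chr9:7272264-7272513, forward strand): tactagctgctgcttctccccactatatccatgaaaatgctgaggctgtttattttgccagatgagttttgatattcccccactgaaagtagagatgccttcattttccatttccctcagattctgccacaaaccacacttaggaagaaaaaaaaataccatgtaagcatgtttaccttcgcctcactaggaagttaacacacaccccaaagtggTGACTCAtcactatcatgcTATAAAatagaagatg
Mmp14 (mm9 chr14:55050185-55050434, forward strand): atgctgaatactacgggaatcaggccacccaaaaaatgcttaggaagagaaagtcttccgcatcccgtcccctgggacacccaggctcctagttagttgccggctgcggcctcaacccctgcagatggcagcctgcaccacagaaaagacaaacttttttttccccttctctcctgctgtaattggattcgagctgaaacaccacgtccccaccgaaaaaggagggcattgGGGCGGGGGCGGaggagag
Timp1 (mm9 chrX:20447042-20447291, forward strand): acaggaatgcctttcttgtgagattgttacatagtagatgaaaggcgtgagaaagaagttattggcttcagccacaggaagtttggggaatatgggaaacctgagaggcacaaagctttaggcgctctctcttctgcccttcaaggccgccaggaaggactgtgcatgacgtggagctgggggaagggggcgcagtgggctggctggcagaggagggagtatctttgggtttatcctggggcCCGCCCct
The capitals in Mmp3 and Mmp13 are an AP-1 site followed by a TATA box, those in Mmp14 are 2 GC boxes in tandem, and those in Timp1 are a GC box on the reverse strand.

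In Linc-RAM knockdown cells, Mmp2 and Timp3 were the members at least 2-fold above the control. Mmp2, gelatinase A, which cuts denatured collagen and type IV collagen of basement membranes, stood at 48.0 RPKM in knockdown cells and 18.3 in control cells, from 274 and 286 reads, a ratio of 2.62 (2.21 to 3.10). Its 13 exons lie on the plus strand of chromosome 8, from 95351227 to 95377316 on mm9. In overexpressing cells it was at 21.9 RPKM, a ratio of 1.19 to the control (0.967 to 1.47), so the knockdown library alone stood apart. Timp3 (5 exons of the plus strand of chromosome 10, from 85763117 to 85812251), the inhibitor that binds the matrix itself and also blocks ADAM and ADAMTS proteases, showed the same order. It stood at 34.2 RPKM in knockdown cells and 16.5 in control cells, a ratio of 2.08 (1.78 to 2.42), and at 18.5 RPKM in overexpressing cells, a ratio of 1.12 (0.934 to 1.34). In bulk RNA, more cells of a type and more RNA per cell cannot be told apart. Of the 8 members measured, 2 were at least 2-fold higher in knockdown cells and none was at least 2-fold lower, against 3.38% and 4.19% of 10165 genes over the whole table. The interval lay wholly above 1 for 4 members and wholly below 1 for 2, against 8.95% and 10.4% of 10119 genes. Such a count depends on reads as well as on ratios, since more reads narrow the interval. Timp2 and Mmp14 were counted at ratios of 1.11 and 1.19, from 689 and 561 reads in knockdown cells. The median over genes with a mean of at least 1 RPKM was 32 reads there, so these shares are not like for like.

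Timp1 and Adamts1 were lower in knockdown cells than in control cells by less than 2-fold. Timp1 (6 exons of the plus strand of chromosome X, from 20447292 to 20451861), a soluble inhibitor that pairs with pro-MMP9, stood at 28.1 RPKM in knockdown cells and 49.1 in control cells, from 47 and 224 reads, a ratio of 0.573 (0.409 to 0.788). In overexpressing cells it stood at 59.8 RPKM, a ratio of 1.22 to the control (0.962 to 1.54). Adamts1, a secreted protease that cuts the proteoglycans aggrecan and versican, stood at 2.62 RPKM in knockdown cells and 4.27 in control cells, a ratio of 0.613 (0.376 to 0.961) from 24 and 107 reads. In overexpressing cells Adamts1 was at 3.60 RPKM (0.843, 0.563 to 1.23). Timp2 and Mmp14 were slightly above the control in knockdown cells, at ratios of 1.11 (1.02 to 1.22) and 1.19 (1.07 to 1.31). Mmp19, a secreted protease of basement membrane proteins, was at 5.71 RPKM in knockdown cells and 6.04 in control cells (0.945, 0.632 to 1.38), and Mmp9 was at 1.53 RPKM in knockdown cells and 2.48 in control cells (0.615, 0.262 to 1.29), so that no difference of these 2 genes was detectable at this depth.

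In Linc-RAM-overexpressing cells, the proteases lay mostly below the control and the inhibitors above it. Mmp9, gelatinase B (13 exons of the plus strand of chromosome 2, from 164766280 to 164781350), known from macrophages and neutrophils and from injured muscle, was the only member at least 2-fold from the control. It stood at 0.908 RPKM in overexpressing cells and 2.48 in control cells, a ratio of 0.366 (0.127 to 0.868) from 6 and 40 reads. With 1 RPKM added to both values the ratio of Mmp9 was 0.548, short of 2-fold, and its mean is under 5 RPKM, so a stricter filter leaves no member called. Mmp14 was at 0.778 of the control (0.695 to 0.870), from 413 and 1293 reads. Mmp19 was at 4.40 RPKM in overexpressing cells and 6.04 in control cells (0.729, 0.475 to 1.09). Timp2 was at 1.18 of the control (1.08 to 1.28), and the ratios of Timp1, Timp3, Mmp2 and Adamts1 given above had intervals that held 1. Of the 8 members measured, none was at least 2-fold higher and 1 was at least 2-fold lower in overexpressing cells, against 3.64% and 3.47% of 10165 genes over the whole table. The interval lay wholly above 1 for 1 member and wholly below 1 for 2, against 9.37% and 8.53% of 10119 genes. Here too the interval count depends on reads. The median log2 ratio was −0.36 over the 5 proteases and 0.23 over the 3 inhibitors, beside 0.00 over all genes. In knockdown cells these medians were −0.08 and 0.15, beside −0.01 over all genes.

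**Figure D2:**
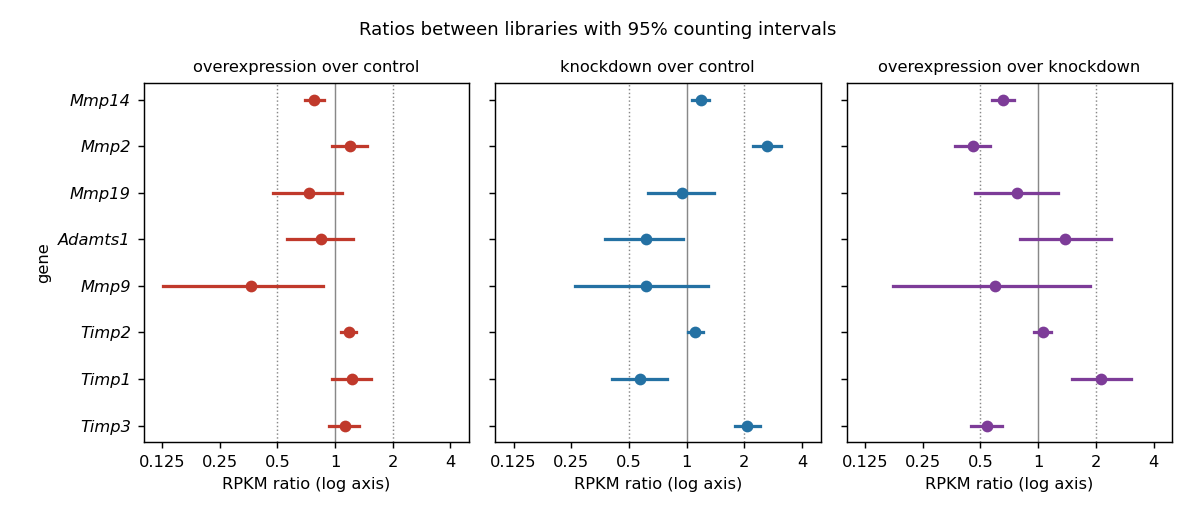
RPKM ratios of the 8 measured genes between libraries on log axes, with points for ratios, bars for 95% counting intervals and dotted lines at 2-fold. Mmp2 and Timp3 lie beyond 2-fold above the control in knockdown cells (2.62 and 2.08), and Mmp9 lies beyond 2-fold below it in overexpressing cells (0.366) with a wide interval.

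The direct ratio of overexpression to knockdown needs no control library. Mmp2 was at 0.456 of the knockdown value (0.369 to 0.561), Timp3 at 0.539 (0.446 to 0.650) and Mmp14 at 0.657 (0.577 to 0.747). Timp1 ran the other way and was 2.13-fold higher in overexpressing cells than in knockdown cells (1.499 to 3.06). Timp2, at 1.06 (0.953 to 1.17), was within counting error. Of the 8 members, 1 was at least 2-fold higher and 1 was at least 2-fold lower, against 5.83% and 5.11% of 10146 genes. The interval lay wholly above 1 for 1 member and wholly below 1 for 3, against 9.61% and 8.14% of 10100 genes. This interval count depends on reads as before. The median log2 ratio was −0.61 over the 5 proteases and 0.08 over the 3 inhibitors, beside 0.02 over all genes. Genes of the marker lists differed between the same libraries, not all in one direction. Des, the muscle intermediate filament, was at 386 RPKM in overexpressing cells, 145 in knockdown cells and 291 in control cells. Of its list, Myod1, Myog, Cdh15 and Myf5 were also highest in overexpressing cells and lowest in knockdown cells. Myod1 was at 34.1 RPKM in overexpressing, 9.76 in knockdown and 16.7 in control cells, and Myog at 22.1, 3.60 and 3.95. Cdh15 was at 41.8, 10.9 and 22.6 RPKM and Myf5 at 15.7, 10.5 and 11.7, in that order. Chrna1 was lowest in control cells, at 55.6, 32.9 and 28.7 RPKM. Ncam1, of the same list, was at 12.3 RPKM in overexpressing cells, 16.6 in knockdown cells and 11.2 in control cells. The fibroblast marker Pdgfra was highest in knockdown cells, at 2.68 RPKM in overexpressing cells, 6.56 in knockdown cells and 3.39 in control cells. Of the same list, Postn was highest there too, at 9.95 RPKM in overexpressing, 21.2 in knockdown and 19.8 in control cells. Dcn was lowest in knockdown cells, at 4.33 RPKM in overexpressing, 0.766 in knockdown and 1.12 in control cells. Col3a1 was lowest there too, at 167, 148 and 163 RPKM in the same order. Scx was highest in overexpressing cells, at 35.5 RPKM, with 33.3 in knockdown and 29.3 in control cells. The osteoblast regulator Runx2 was at 4.66 RPKM in overexpressing cells, 10.5 in knockdown cells and 6.41 in control cells. Sox9, of the same list, was lowest in knockdown cells, at 12.5 RPKM in overexpressing, 6.29 in knockdown and 7.10 in control cells. The 6 smooth muscle and pericyte markers summed to 414 RPKM in overexpressing cells, 606 in knockdown cells and 1065 in control cells. Acta2, smooth muscle actin, made up most of this sum, at 373 RPKM in overexpressing cells, 544 in knockdown cells and 985 in control cells, and Myh11 and Rgs5 were at 0 in every library. Their part in the differences of the proteases and inhibitors was not tested.

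**Figure D3:**
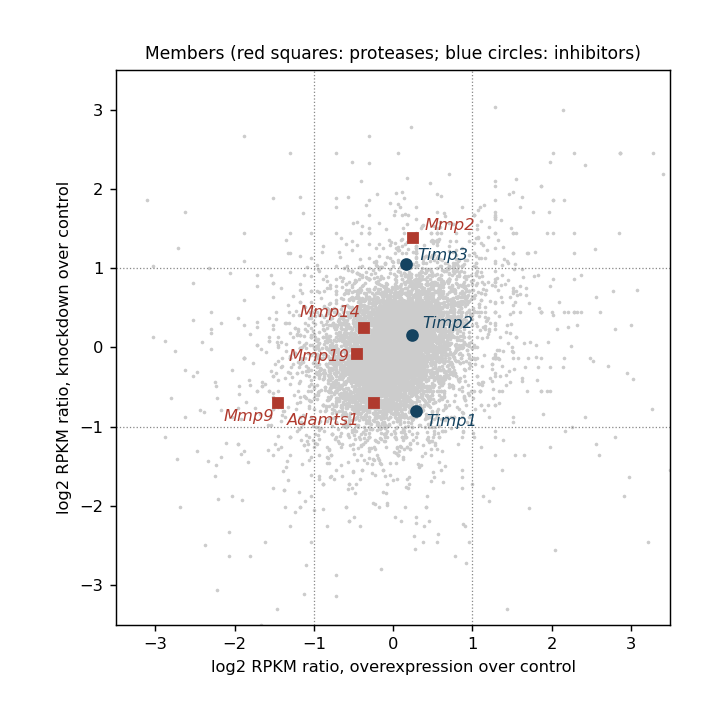
Log2 RPKM ratios to the shared control library in overexpressing cells (x axis) and in knockdown cells (y axis) for 10122 genes in grey, 19 of which lie beyond the axes, with the 8 measured members in colour and dotted lines at 2-fold. Mmp2 and Timp3 lie together above the centre, Timp1 lies below it, and Mmp9 lies to the lower left.

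Proteases were set against inhibitors by their summed RPKM, which is per length and so can be added over genes. These sums are of RNA, and neither protein nor enzyme activity was measured. The 7 proteases summed to 106 RPKM in overexpressing cells, 173 in knockdown cells and 128 in control cells, and the 3 inhibitors to 292 RPKM in overexpressing cells, 265 in knockdown cells and 248 in control cells. The inhibitor sum was above the protease sum in each library, and this order rested on Timp2 alone. Without Timp2 the protease sum was 1.36 times the inhibitor sum in overexpressing cells, 2.77 times in knockdown cells and 1.96 times in control cells. With all members the protease sum was 0.364 of the inhibitor sum in overexpressing cells (0.329 to 0.403, a 95% interval by the delta method from counting error), 0.652 in knockdown cells (0.594 to 0.716) and 0.518 in control cells (0.486 to 0.552). These intervals did not overlap. Relative to the control, the protease to inhibitor ratio was 0.704 in overexpressing cells (0.625 to 0.794) and 1.26 in knockdown cells (1.13 to 1.41). In overexpressing cells the protease sum was 0.831 of the control (0.758 to 0.910) and the inhibitor sum was 1.18 (1.09 to 1.27). In knockdown cells the protease sum was 1.35 of the control (1.24 to 1.46) and the inhibitor sum was 1.07 (0.988 to 1.16).

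Few genes set these sums, which hold the members only. Mmp11, not a member, was at 27.1 RPKM in overexpressing, 29.6 in knockdown and 20.3 in control cells, above Mmp2 in overexpressing and control cells. Mmp14 made up 70.9% of the protease sum in overexpressing cells, 66.5% in knockdown cells and 75.7% in control cells, and Mmp2 made up 20.5% in overexpressing cells, 27.8% in knockdown cells and 14.3% in control cells. Timp2 made up 73.2% of the inhibitor sum in overexpressing cells, 76.5% in knockdown cells and 73.5% in control cells. Timp1 made up 20.5% of it in overexpressing cells, 10.6% in knockdown cells and 19.8% in control cells, and Timp3 6.32%, 12.9% and 6.66% in the same 3 libraries. The higher ratio in knockdown cells rested on Mmp2, since without Mmp2 it was 1.06 of the control, and on a mean of log2(RPKM + 1) over genes, which weighs each gene alike, it was 0.963. The lower ratio in overexpressing cells was 0.843 without Mmp14 and stayed below 1 without any other single gene.

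**Figure D4:**
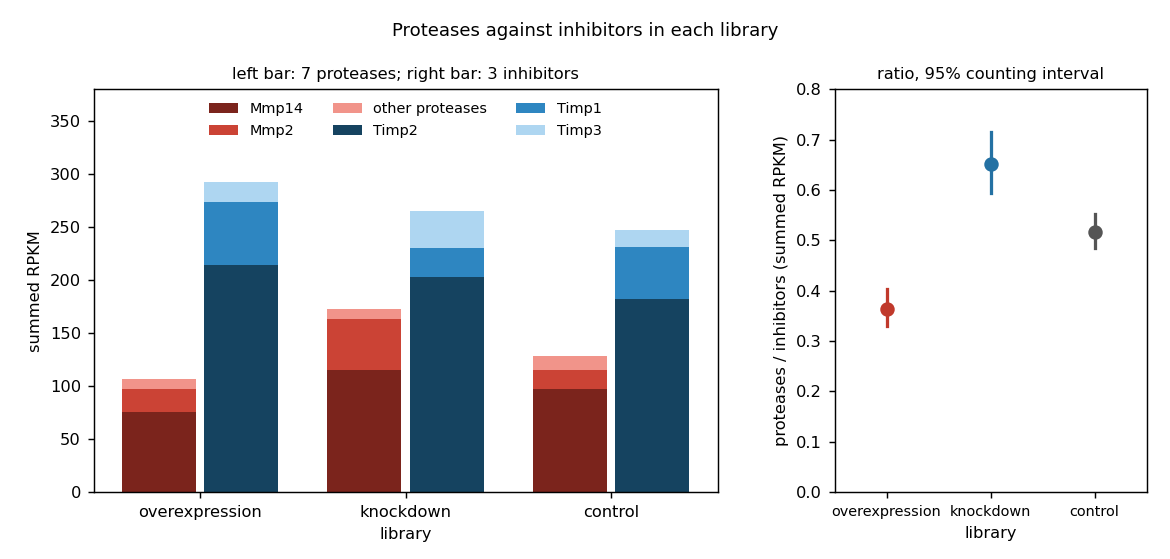
Summed RPKM of the 7 proteases (left bars) and 3 inhibitors (right bars) in each library, split by gene, and the ratio of the 2 sums with its 95% counting interval. The ratio is 0.364 in overexpressing cells, 0.652 in knockdown cells and 0.518 in control cells.

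Pairs of known partners were compared as ratios within a library, in which read depth and gene length drop out when libraries are compared. MMP14 and TIMP2 form a surface complex that captures pro-MMP2 for activation. Mmp2 stood at 0.102 of Timp2 in overexpressing cells, 0.237 in knockdown cells and 0.101 in control cells, so the Mmp2 to Timp2 ratio was 2.35 times that of the control in knockdown cells (1.94 to 2.85, exact conditional odds ratio) and 1.02 times in overexpressing cells (0.809 to 1.27). Mmp14 stood at 0.353 of Timp2 in overexpressing cells, 0.568 in knockdown cells and 0.533 in control cells, which is 0.662 times the control in overexpressing cells (0.575 to 0.763) and 1.07 times in knockdown cells (0.931 to 1.22). The Mmp2 to Timp2 ratio thus differed from the control in knockdown cells, and the Mmp14 to Timp2 ratio in overexpressing cells. Mmp2 relative to Mmp14 was above the control in both lines, at 1.53 times in overexpressing cells (1.21 to 1.94) and 2.21 times in knockdown cells (1.81 to 2.69). Mmp9 relative to Timp1, its partner in the pro-MMP9 complex, was 0.300 times the control in overexpressing cells (0.101 to 0.743) and 1.07 times in knockdown cells (0.428 to 2.44). Adamts1 relative to Timp3, its inhibitor, was 0.752 times the control in overexpressing cells (0.483 to 1.15) and 0.295 times in knockdown cells (0.177 to 0.477), since Adamts1 was lower and Timp3 higher there.

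Of 17 other Mmp genes, 4 had a mean of at least 1 RPKM. Mmp11, stromelysin 3, was the most abundant at 27.1 RPKM in overexpressing cells, 29.6 in knockdown cells and 20.3 in control cells, with ratios to the control of 1.33 in overexpressing cells (1.07 to 1.66) and 1.46 in knockdown cells (1.16 to 1.82). The membrane-type Mmp15 was at 2.33 RPKM in overexpressing cells, 0.622 in knockdown cells and 0.865 in control cells, 2.69-fold above the control in overexpressing cells (1.38 to 5.30). It passed the minimum mean of 1 RPKM only through the overexpression library, where it had to be high. Mmp23, a transmembrane protease, had 2 reads in overexpressing cells, 15 in knockdown cells and 11 in control cells, and its ratio in knockdown cells was 3.73 (1.60 to 8.97). In overexpressing cells Mmp23 was at 0.443 of the control (0.0477 to 2.03). In all, 1 of the 4 was at least 2-fold above and 1 below the control in overexpressing cells, and 1 above and none below it in knockdown cells. Over all genes, 3.64% were 2-fold above and 3.47% below the control in overexpressing cells, and 3.38% above and 4.19% below it in knockdown cells. The median log2 ratio of the 4 was −0.29 in overexpressing cells and 0.03 in knockdown cells, beside medians of 0.00 and −0.01 over all genes, and these medians and percentages hold for the lists that follow too.

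Of 23 other Adamts and Adamtsl genes, 10 were measured, 1 at least 2-fold higher and 1 lower in overexpressing cells, and 1 higher and none lower in knockdown cells, beside 3.64% higher and 3.47% lower of all genes in overexpressing cells and 3.38% and 4.19% in knockdown cells. Adamts14 and Adamts2, both of which trim the amino end of procollagens, ran in opposite directions in overexpressing cells, at 2.37-fold (1.70 to 3.31) and 0.318 of the control (0.158 to 0.582). In knockdown cells Adamts14 was at 0.745 (0.437 to 1.22) and Adamts2 at 0.742 (0.457 to 1.17). Adamtsl3, which lacks the protease domain, was 3.70-fold above the control in knockdown cells (2.51 to 5.49), from 65 reads in knockdown cells and 48 in control cells, and at 0.609 in overexpressing cells (0.295 to 1.16). Adamts7 and Adamts4, the most abundant of the list, were within counting error of the control in overexpressing cells, and in knockdown cells Adamts7 was at 0.673 (0.545 to 0.825) and Adamts4 at 0.929 (0.718 to 1.19). Of 7 ADAM genes measured, which shed proteins from the cell surface, Adam12 was at 0.990 RPKM in overexpressing cells and 6.65 in control cells, a ratio of 0.149 (0.0838 to 0.246). Adam8 was at 2.66 RPKM in overexpressing cells and 1.03 in control cells, a ratio of 2.59 (1.23 to 5.48), and it too passed the minimum mean only through the overexpression library. In knockdown cells Adam8 was at 0.341 of the control (0.0381 to 1.45) from 2 reads and was the only ADAM gene 2-fold away, and Adam9 and Adam10, the most abundant, had intervals that held 1 in both lines. Median log2 ratios were −0.11 for the Adamts list and 0.16 for the ADAM list in overexpressing cells, and −0.13 and 0.09 in knockdown cells.

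A list of protease inhibitors and their relatives other than the 3 TIMPs had 9 measured genes, not all of which inhibit proteases. All 9 were within 2-fold of the control in overexpressing cells, while 1 lay 2-fold above it and 2 lay 2-fold below it in knockdown cells, beside 3.38% and 4.19% of all genes. Spock2, a testican proteoglycan known in human to lift the inhibition of membrane-type MMPs by other testicans, was at 3.76 RPKM in overexpressing cells, 13.6 in knockdown cells and 3.49 in control cells, 3.90-fold above the control in knockdown cells (2.85 to 5.37). Serping1, the C1 inhibitor, was at 0.195 of the control in knockdown cells (0.0225 to 0.774) from 2 reads, and Serpinb2, an inhibitor of plasminogen activators, at 0.304 (0.0342 to 1.27) from 2 reads. Serpinb2 passed the minimum mean only through the control library, where it was highest. The 2 most abundant genes of this list were Serpinh1, the collagen chaperone HSP47, which is no protease inhibitor, at 0.658 of the control in overexpressing cells (0.612 to 0.708) and 0.726 in knockdown cells (0.675 to 0.781), and Cst3, the cysteine protease inhibitor cystatin C, at 0.725 in overexpressing cells (0.627 to 0.837) and 0.718 in knockdown cells (0.616 to 0.834). The median log2 ratio of the 9 genes was −0.18 in overexpressing cells and −0.41 in knockdown cells.

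Of 8 measured genes of plasminogen activation, 1 lay 2-fold above the control in overexpressing cells, and 1, Serpinb2, 2-fold below it in knockdown cells, beside 3.64% and 4.19% of all genes. As said above, Serpinb2 passed the minimum mean only through the control library. Plau, the urokinase that turns plasminogen into plasmin, was at 42.6 RPKM in overexpressing cells, 12.5 in knockdown cells and 15.9 in control cells, ratios to the control of 2.68 in overexpressing cells (2.19 to 3.28) and 0.787 in knockdown cells (0.572 to 1.07). S100a10 and Anxa2, which bind plasminogen at the surface, were at 184 and 111 RPKM in overexpressing cells, 161 and 91.1 RPKM in knockdown cells and 153 and 103 RPKM in control cells. The 3 measured proprotein convertases, which cleave pro-MMP14 and other precursors, were within 2-fold of the control in both lines, and Furin was at 0.851 in overexpressing cells (0.712 to 1.01) and 0.702 in knockdown cells (0.574 to 0.854). The 3 measured tolloid proteases and enhancers were also within 2-fold, with the procollagen C-proteinase Bmp1 at 0.941 in overexpressing cells (0.826 to 1.07) and 0.709 in knockdown cells (0.608 to 0.823). Pcolce, its enhancer, was at 0.987 in overexpressing cells (0.899 to 1.08) and 0.827 in knockdown cells (0.745 to 0.917). Median log2 ratios in overexpressing cells were 0.13 for plasminogen activation, −0.04 for the convertases and −0.02 for the tolloid list. In knockdown cells they were −0.35, −0.39 and −0.27, all below the median of all genes.

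Of 11 genes that dock, induce or clear metalloproteinases, all measured, 2 lay 2-fold above and 1 lay 2-fold below the control in overexpressing cells, beside 3.64% and 3.47% of all genes, and all 11 were within 2-fold of it in knockdown cells. Cd44, the hyaluronan receptor that holds MMP14 and MMP9 at the surface, was at 67.1 RPKM in overexpressing cells, 24.5 in knockdown cells and 28.3 in control cells, a ratio of 2.37 in overexpressing cells (2.15 to 2.62). Thbs2, a thrombospondin that clears MMP2 together with the receptor LRP1, was at 2.90 of the control in overexpressing cells (2.51 to 3.35) and 1.49 in knockdown cells (1.24 to 1.78). Its relative Thbs1 was at 0.489 in overexpressing cells (0.445 to 0.535) and 1.12 in knockdown cells (1.04 to 1.20). Bsg, the metalloproteinase inducer EMMPRIN, was at 1.18 in overexpressing cells (1.07 to 1.31) and 0.925 in knockdown cells (0.821 to 1.04). The median log2 ratio of the 11 genes was 0.15 in overexpressing cells and −0.02 in knockdown cells.

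**Figure D5:**
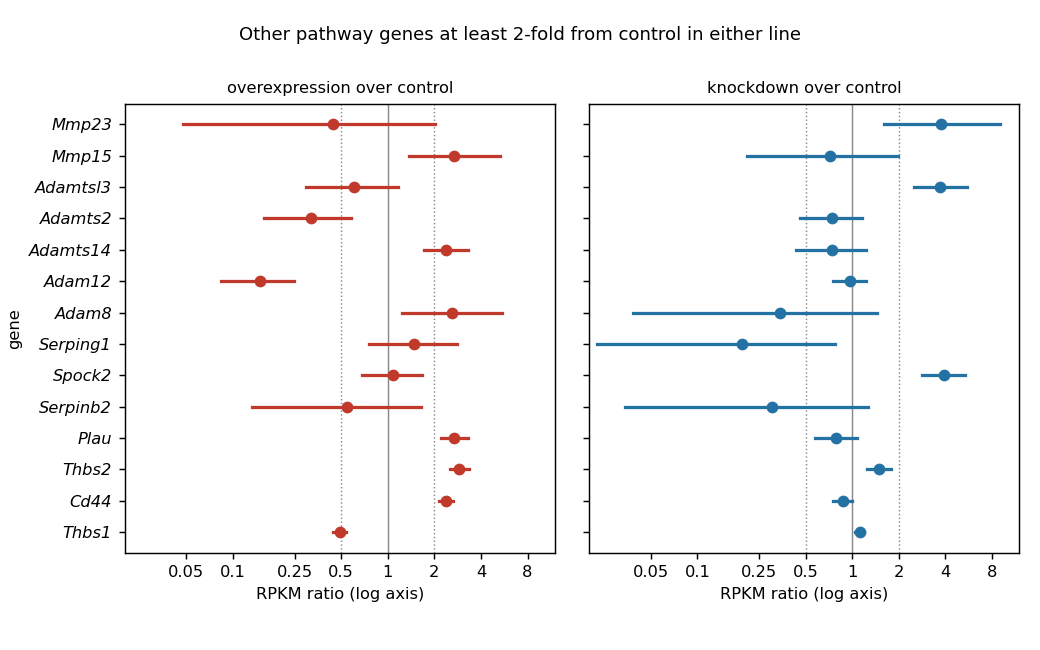
RPKM ratios to the control of the 14 other pathway genes at least 2-fold from the control in either line, with 95% counting intervals, log axes and dotted lines at 2-fold. Plau, Cd44 and Thbs2 lie above 2-fold in overexpressing cells (2.68, 2.37 and 2.90), and Spock2 and Adamtsl3 lie above it in knockdown cells (3.90 and 3.70).

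Over the 3 libraries, the genes whose pair of log2 ratios lay nearest to that of Mmp2, the member with a mean of at least 5 RPKM farthest from the control in knockdown cells, were Alox5ap (distance 0.15), Kitl (0.16) and Deptor (0.17), out of 5894 genes with a mean of at least 5 RPKM and values above 0. Their ratios in knockdown cells were 2.85, 2.55 and 2.45. For Mmp19, the member of that level farthest from the control in overexpressing cells, they were Zfp609, 1110004F10Rik and Dyrk1b, at distances of 0.01, 0.02 and 0.02. Both ratios of Mmp19 were within counting error of 1, at 0.729 in overexpressing cells (0.475 to 1.09) and 0.945 in knockdown cells (0.632 to 1.38). Its neighbours thus share a pattern not told apart from no difference. All these neighbours rest on 3 libraries and on a control common to both ratios.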

How the data were processed

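RNA of 3 stable C2C12 lines was sequenced after polyA selection. To make the files, the authors aligned reads to mm9 with TopHat (the submitters' notes name version 1.4.1), obtained coverage per gene with DEGSeq and deposited RPKM values, 1 file per library. The gene annotation, the use of strand and the handling of multiply mapped reads were not given in the sources used here. By GENCODE on mm9, exons of Mmp19 share 789 bases with 1110012D08Rik (5.90 to 7.51 RPKM) and those of Timp3 share 1733 bases with Syn3 (at most 0.0900 RPKM), each on the opposite strand, so that such reads cannot be told apart without strand.

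Ratios of RPKM, without a pseudocount, covered the 10172 genes averaging at least 1 RPKM, at the 2-fold criterion that the study's Methods give. The legend of the study's heatmap gives 1.5-fold with a limit on P instead. A gene at 0 in the denominator has no ratio. With 1 library per condition no p-value or standard error was computed. The read total of a library was found from the genes with 1 read, whose RPKM depends on their GENCODE length alone (251 to 272 such genes a library). Reads were then computed at a GENCODE length that made them whole in each library (23.6% of genes) or else at the smallest length, from 200 to 12000 nt, that did so within the rounding of the 6 digits. A length was found for 99.5% of genes, with a median of 37 reads in overexpressing, 32 in knockdown and 87 in control cells. The length found for Timp2 was 1811 nt against 3709 nt in GENCODE, so its reads are a lower estimate and its intervals are wider than they would be at the annotated length. These steps were tested on simulated data in which a larger share of genes had a GENCODE length than was found here. That test thus bears less on reads found at the smallest length.

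The members, lists and alternatives were chosen with earlier results of these data known. Named genes are the 10 members and, in each other list, up to 4 genes at least 2-fold from the control and the 2 most abundant, besides the 3 genes nearest in pattern to 2 members. Promoter windows are from RefSeq (GRCm38.p6) and were matched to mm9. Alternatives were other pseudocounts, scalings, filters and thresholds, other lengths, and leaving each gene out of the sums. Computations were run in Python 3.11.15 with scipy 1.17.1, pandas 2.3.3, numpy 2.4.6 and, for figures, matplotlib 3.10.9. No column of sample values was left unused.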

Additional observations from a re-analysis of the deposited data

How the results depend on the processing

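No paired analysis was possible because each condition has 1 library, for which reason none was left out. The 24 ratios of single members kept their direction with 0.1 and 1 RPKM added and under median and upper quartile scaling, and, with the pair ratios, all 39 did with 1 RPKM added, the only alternative run for pairs. Other read lengths leave a ratio as it is and change only its interval, and the side of 1 on which it lay changed for none of the 24. One of these lengths was chosen after seeing the data. Scalings shifted log2 ratios by at most 0.06. Of the members, 1 was 2-fold lower in overexpressing cells, against 0 with 1 RPKM added, 0 at a mean of at least 5 RPKM and 2 by an interval without 1, by which 1 was higher, against 0 at 2-fold. In knockdown cells the interval criterion gave 4 higher, against 2 at 2-fold, and 2 lower, and a 1.5-fold criterion gave 3 lower, against 0 at 2-fold. Between overexpressing and knockdown cells 1 member was lower at 2-fold, 4 at 1.5-fold and 3 by the interval. The protease to inhibitor ratio of overexpressing to control cells, 0.704, was 0.843 without Mmp14. That of knockdown to control cells, 1.26, was 1.06 without Mmp2, 1.74 without Mmp14, 1.42 without Timp2, 1.10 by summed reads and 0.963 by mean log2(RPKM + 1). That of overexpressing to knockdown cells, 0.558, was 0.485 without Mmp14, 0.649 by summed reads and 0.781 by mean log2(RPKM + 1). The summed reads hold Timp2 at its lower estimate, 816 reads in overexpressing, 689 in knockdown and 1692 in control cells. At the multiple nearest its annotated length Timp2 has 1632, 1378 and 3384 reads, and the sums were not run with these. All sums rest on few genes by construction. The other differences here had no cause tested. Depth limits Mmp9, Mmp13 and Mmp3 most, with 6 reads, 1 read and 0 reads in overexpressing cells.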
